A study of Mus musculus with 3 samples.

Results

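The 10 genes described here mark stem and progenitor cells of emerging blood and were followed across the clusters of adult cardiac endothelial cells cultured with embryonic stroma, namely *Myb*, *Hlf*, *Mecom*, *Meis1*, *Mycn*, *Procr*, *Ly6a*, *Cd34*, *Cd93* and *Ptprc*. They were chosen by name, 10 of the 27994 genes of the count table, all 10 of which were found in it. The first 5 encode transcription factors and the other 5 encode cell-surface proteins. Each was described across the 7 deposited clusters, and genes also expressed in endothelium were separated from those restricted to blood.

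The cells came from hearts of 12 to 16-week-old female mice carrying a GFP reporter transgene. GFP+ endothelial cells, positive for CD31 and VE-Cad and negative for CD41, CD45, PDGFRA and PDGFRB, were co-aggregated with PDGFRA+ stromal cells (PSCs) that were DsRed+ through *Mesp1*-driven recombination, sorted from the aorta-gonad-mesonephros region (AGM) of E11.5 embryos, in medium with IL-3, SCF and Flt3L. Cells with GFP, CD31 and VE-Cad and without PDGFRA were sorted again at 24, 48, 72 and 96 h, without a CD41 or CD45 gate, and mixed with freshly isolated endothelium (0 h) in each of 3 pools. The count table held 9562 cells and 252339042 unique molecular identifiers (UMIs, each standing for 1 captured transcript), with 3 library suffixes on the cell barcodes. No label tied a suffix to a pool or a cell to a time, and all cells were treated as 1 sample, with library suffixes 1, 2 and 3 shown side by side for the spread. Since the clustering used these very UMIs, levels across clusters are a description and no test was made between them.

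During the endothelial-to-haematopoietic transition, cells of the arterial wall switch on the transcription factor *Runx1*, become haemogenic and lose endothelial genes while rounding up into blood cells. *Gfi1*, a repressor induced by *Runx1*, acts in this loss of endothelial identity. Many genes used to mark stem cells, among them *Cd34*, *Procr* and *Mecom*, are also active in blood vessels, whereas *Myb* and *Ptprc* are known chiefly from blood.

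Marker levels set the frame for the 7 clusters. The summed level of 6 endothelial markers was 40.1, 41.6 and 30.2 UMIs per 10,000 UMIs in clusters 0, 1 and 2, and between 3.42 and 5.39 in clusters 3 to 6. Clusters 5 and 6 carried blood markers, with macrophage and granulocyte-progenitor genes at 17.6 and 8.78 in cluster 5 and megakaryocyte genes at 200.5 in cluster 6. Cluster 3 instead led in germ-cell or pluripotency genes (44.02) and cluster 4 in stromal genes (18.7), which goes against a purely endothelial or blood identity for these cells. Clusters 0 to 6 held 728, 799, 5396, 239, 518, 1572 and 310 cells. Median depth ran from 7875 UMIs per cell in cluster 1 to 36065.5 in cluster 5, and from 13440.5 in library 2 to 38312 in library 3. Shares of cells were therefore also taken after each cell was thinned to 5000 UMIs.

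**Figure D1:**
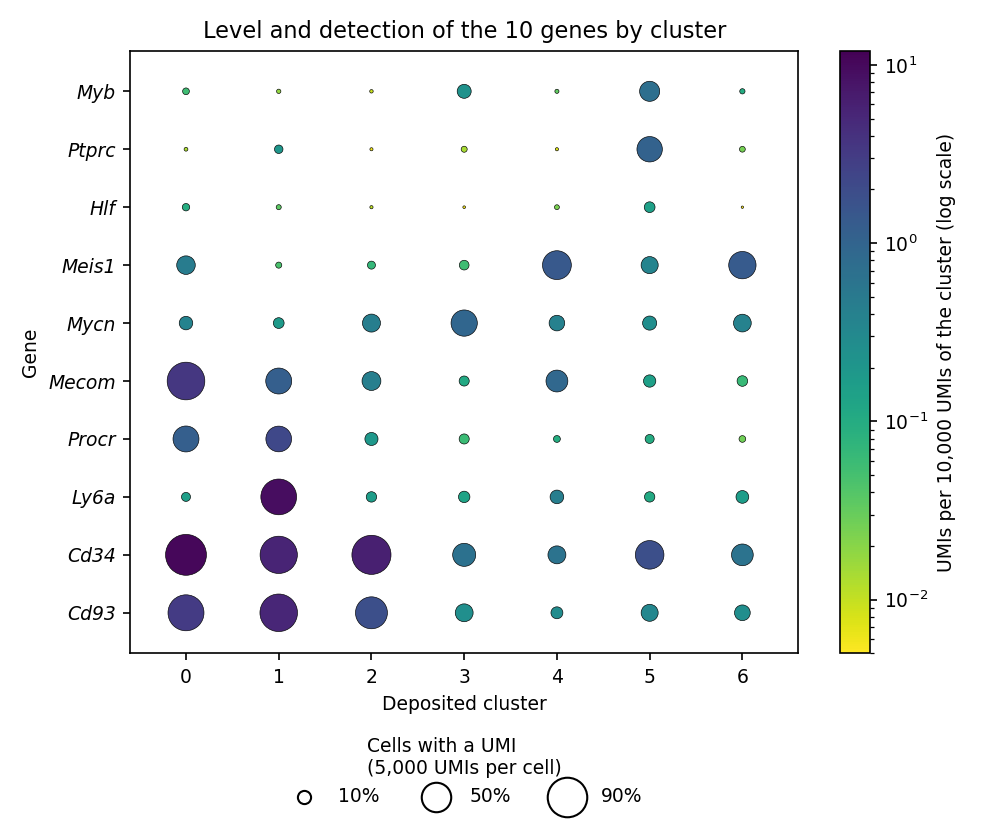
Level and detection of the 10 genes in clusters 0 to 6: colour gives UMIs per 10,000 UMIs of the cluster on a log scale, and circle area the share of cells with a UMI after thinning to 5000 UMIs per cell. *Myb* and *Ptprc* were highest in cluster 5, while *Mecom* and *Cd34* were highest in cluster 0 and *Procr*, *Ly6a* and *Cd93* in cluster 1.

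A blood-to-endothelium ratio was set for each gene as the higher level of clusters 5 and 6 over the highest of clusters 0, 1 and 2. A ratio of 4 or more was called blood-restricted and one of 0.25 or less endothelium-restricted. These names stand for the ratio alone, not for absence from the other cells, and clusters 3 and 4 did not enter it. *Cd34*, called endothelium-restricted below, was still detected in 47.1% of the thinned cells of cluster 5. *Myb* (13.1) and *Ptprc* (5.40) were blood-restricted, 2 of the 10 genes, against 4.4% of the 10063 genes above 0.1 UMIs per 10,000 in at least 1 of these clusters. *Mecom* (0.042), *Procr* (0.046), *Ly6a* (0.017), *Cd34* (0.18) and *Cd93* (0.062) were endothelium-restricted, 5 of the 10, against 15.5% of all such genes. *Hlf* (1.58), *Meis1* (2.85) and *Mycn* (0.85) were shared, as were 80.1% of all genes. The median ratio was 0.52 over the 10 genes and 0.83 over all genes. In a list of 47 other stem-cell and haemogenic genes, 10 were blood-restricted, among them *Runx1* and the myeloid factor gene *Spi1*, 11 were endothelium-restricted, among them *Sox17* and the ETS factor gene *Erg*, 23 were shared and 3 fell below the minimum level. In each of the 3 libraries the ratio was above 1 for *Myb*, *Ptprc* and *Meis1* and below 1 for *Mycn* and the 5 endothelium-restricted genes, whereas *Hlf* was above 1 in 2 libraries. The size of the *Myb* and *Ptprc* ratios moved with the setting: *Myb* was at 20.9 without library 2, and *Ptprc* at 9.93 after thinning to 5000 UMIs and 9.43 as a mean over cells.

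**Figure D2:**
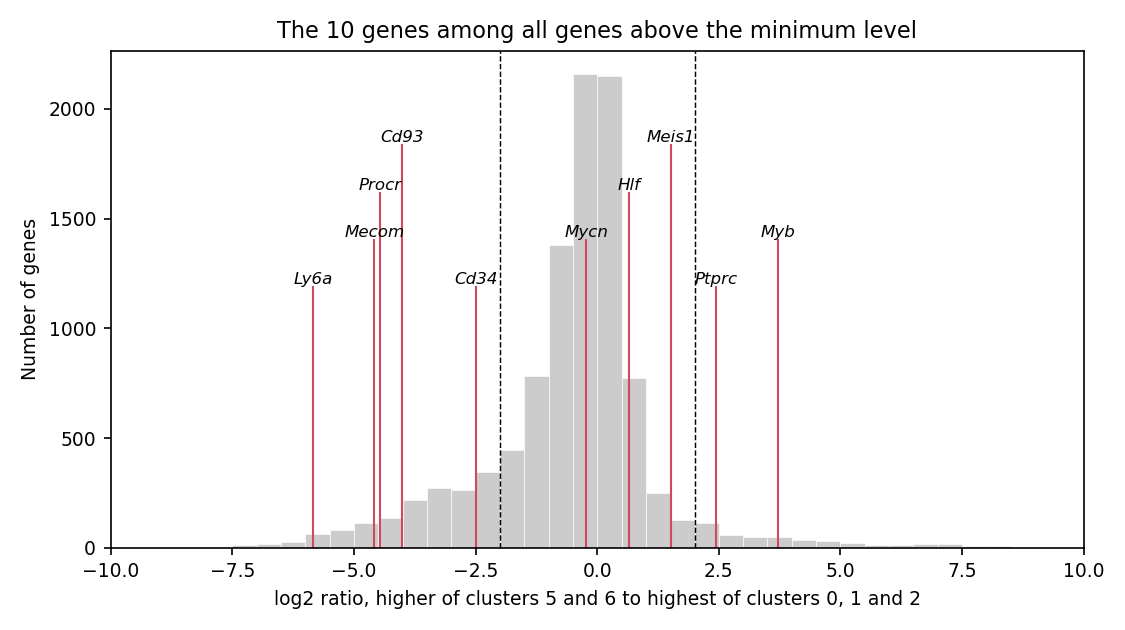
Distribution of the log2 blood-to-endothelium ratio over 10063 genes (grey bars, number of genes per bin), with the 10 genes as red lines of arbitrary height and the limits of the 3 classes as dashed lines. *Ly6a* lay farthest to the left of the 10 and *Myb* farthest to the right.

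*Myb*, at chr10:21124935-21160984 on the minus strand of GRCm38, encodes a transcription factor needed for definitive haematopoiesis. Its level in cluster 5 was 0.657, 0.845 and 0.733 UMIs per 10,000 in libraries 1, 2 and 3. Cluster 3, which carried germ-cell or pluripotency genes, came next at 0.226, 0.235 and 0.251. These ranges did not overlap, and the pooled level was 3.09-fold higher in cluster 5 (0.728, 95% Poisson interval 0.707 to 0.750). Cluster 6 held 0.100 and the endothelial clusters 0.056 or less. In cells thinned to 5000 UMIs, *Myb* was detected in 23.2% of cluster 5, 11.3% of cluster 3 and 2.63% of cluster 0, against 0.977% of the stromal cells of cluster 4. Cluster 0 was 13.1-fold below cluster 5, and its libraries differed from each other, at 0.041, 0.107 and 0.025.

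*Hlf*, at chr11:90336536-90390895 on the minus strand, encodes a leucine-zipper factor of haematopoietic stem cells. It was a low-abundance transcript in every cluster. In cluster 5 it stood at 0.125, 0.185 and 0.146 UMIs per 10,000 by library, and in the endothelial cluster 0 at 0.126, 0.094 and 0.058. The ranges overlapped, so the order of the pooled levels (0.147 in cluster 5, 0.093 in cluster 0) was within the spread between libraries. Clusters 3 and 6 held 4 and 6 UMIs in all. After thinning, *Hlf* was found in 6.70% of cluster 5 and 3.19% of cluster 0, against 1.37% of cluster 4. By library these shares were 5.85%, 6.05% and 9.54% in cluster 5 and 2.21%, 4.58% and 2.41% in cluster 0. Unlike the levels, they did not overlap.

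*Mecom*, at chr3:29951296-30548008 on the minus strand, encodes the zinc-finger factor EVI1 of stem cells and arterial endothelium. It was most abundant in cluster 0, with 3.16, 3.89 and 3.60 UMIs per 10,000 by library. Cluster 1 followed at 0.994, 1.38 and 1.25, then the stromal cluster 4 at 0.818, 0.981 and 0.874. Cluster 5 held 0.148 over all cells, with library values of 0.115, 0.215 and 0.141 that overlapped those of cluster 3 (0.089, 0.176 and 0.048). Cluster 5 was higher than cluster 3 within each library, by 1.35-fold over all cells. Cluster 5 to cluster 0 gave a ratio of 0.042. After thinning, 81.6% of cluster 0 and 8.74% of cluster 5 had a *Mecom* UMI.

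*Meis1*, at chr11:18879817-19018985 on the minus strand, encodes a homeobox cofactor of HOX proteins used in stem cells and megakaryocytes. Its levels were highest in cluster 4 (1.21, 1.73 and 1.45) and cluster 6 (1.21, 1.36 and 1.498), whose ranges overlapped. Cluster 0 held 0.439, 0.517 and 0.463, above cluster 5 at 0.338, 0.423 and 0.331 in every library. Clusters 1, 2 and 3 were at 0.068 or less in the pooled counts. Cluster 4 was the higher of the first 2 in 1 of 3 libraries, so their order is not settled.

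*Mycn*, at chr12:12936093-12941914 on the minus strand, encodes a MYC-family factor of proliferating progenitors. Cluster 3 led with 0.992, 0.939 and 0.869 UMIs per 10,000, 2.12-fold above cluster 2 (0.478, 0.430 and 0.425). The pooled levels of clusters 2, 4, 6 and 0 lay between 0.369 and 0.445, and neighbours among them overlapped. Cluster 5 (0.267) and cluster 1 (0.177) were lowest, again with overlapping ranges.

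*Procr*, at chr2:155751117-155755471 on the plus strand, encodes the endothelial protein C receptor (CD201), a stem cell and vessel marker. Cluster 1 held 2.71, 2.36 and 1.45 UMIs per 10,000 and cluster 0 held 1.35, 1.17 and 0.966, ranges that did not overlap. After thinning the share of cells was nearly equal in both, at 38.0% and 38.8%. In cluster 5 the libraries held 0.111, 0.114 and 0.083, and these overlapped cluster 4 (0.137, 0.093 and 0.053).

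*Ly6a*, at chr15:74994877-74998031 on the minus strand, encodes the GPI-anchored antigen Sca-1 of stem cells and some endothelium. It stood out by its concentration in cluster 1, with 8.70, 8.12 and 10.7 UMIs per 10,000, 20.7-fold above the next cluster, 4 (0.614, 0.354 and 0.324). Cluster 1 had 66.4% of all *Ly6a* UMIs and 8.36% of the cells. Of its cells, 56.4% were above 5 UMIs per 10,000, against at most 3.09% in any other cluster. Cluster 5 held 0.117, 0.167 and 0.059, overlapping cluster 3 (0.078, 0.242 and 0.064). The last 500 bases of *Ly6a* share 10 runs of 60 bases with the gene I830127L07Rik, so reads there may match both genes. The effect on the *Ly6a* count was not measured.

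*Cd34*, at chr1:194938819-194961279 on the plus strand, encodes a sialomucin of progenitors and vessels. Its level was 10.54, 10.61 and 10.33 UMIs per 10,000 in cluster 0, followed by clusters 2 (5.90, 6.17 and 5.85) and 1 (5.51, 6.09 and 5.11), which overlapped. Cluster 5 held 1.72, 2.03 and 1.96, below every endothelial cluster yet 2.82-fold above cluster 3 (0.503, 1.15 and 0.245) with no overlap. Of the 5 endothelium-restricted genes, *Cd34* was the only one whose cluster 5 libraries all lay above those of clusters 3, 4 and 6.

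*Cd93*, at chr2:148436640-148443563 on the minus strand, encodes a C-type lectin-like receptor of endothelium and early progenitors. Clusters 1, 0 and 2 held 5.26, 3.14 and 1.84 UMIs per 10,000, with no overlap between neighbours. Clusters 3 to 6 lay between 0.255 and 0.327, and neighbours among them overlapped. In cluster 3 the library values of *Cd93* (0.170, 0.485 and 0.064), *Cd34* and *Cdh5* (0.437, 1.07 and 0.347), the gene of VE-cadherin, were all highest in library 2, the shallowest library. The part of free RNA in these low levels was not tested.

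*Ptprc*, at chr1:138062861-138175708 on the minus strand, encodes the pan-leukocyte phosphatase CD45. In cluster 5 its level was 1.03, 1.11 and 1.12 UMIs per 10,000. Cluster 1 held 0.267, 0.183 and 0.113, and no other cluster exceeded 0.0251. After thinning, *Ptprc* was detected in 37.2% of cluster 5, 4.16% of cluster 1, 1.94% of the megakaryocyte-gene cluster 6 and 0.831% of cluster 0. Within cluster 1 the gene was concentrated in 31 of 745 cells with at least 2 *C1qb* UMIs, a macrophage complement gene, where it reached 1.70 against 0.094 in the other 714 cells (median depth 16133 and 8054.5 UMIs). Macrophage markers summed to 4.06 in cluster 1 and to 0.114 in cluster 0.

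**Figure D3:**
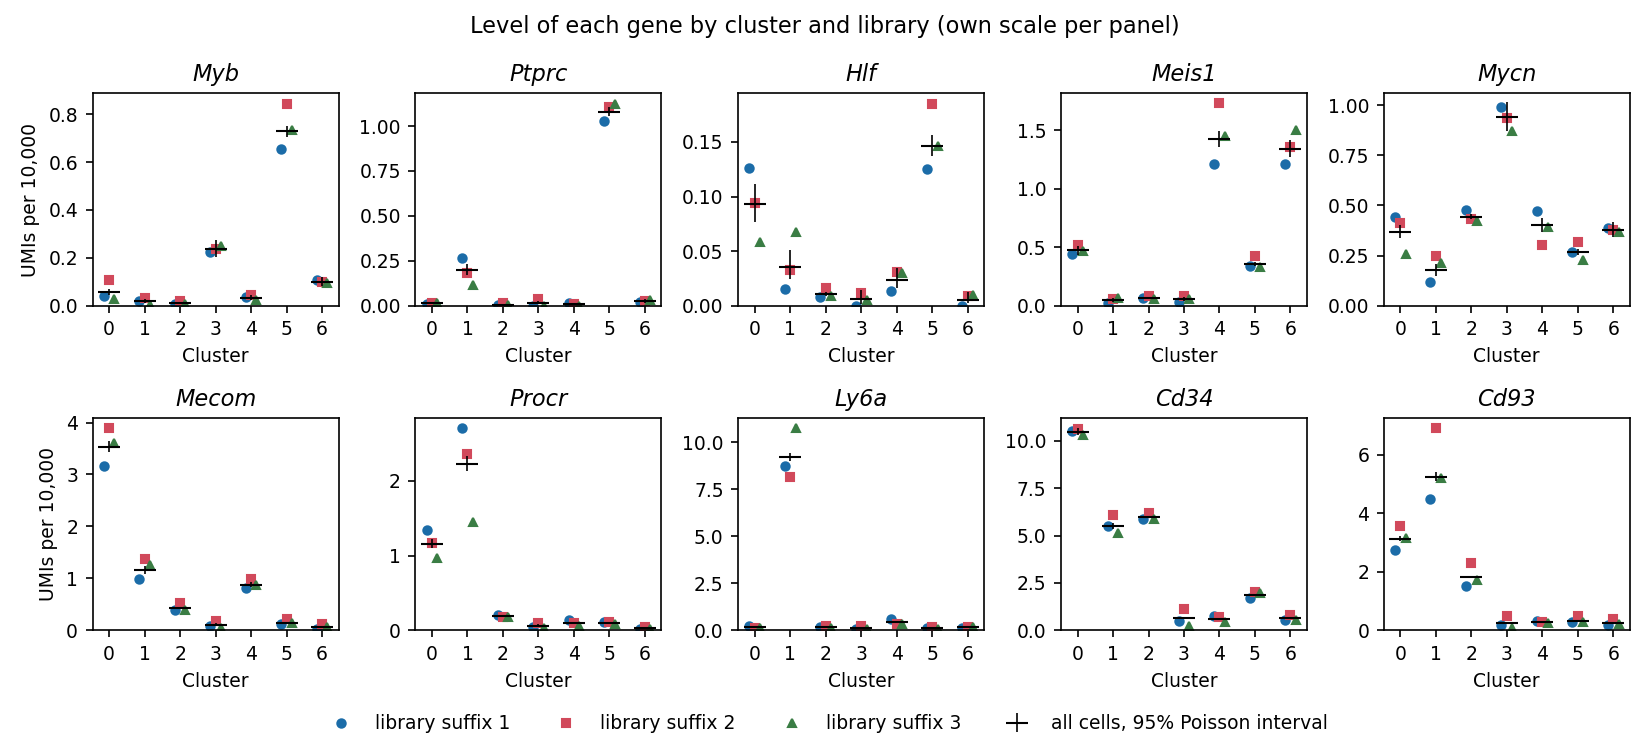
Level of each gene (UMIs per 10,000 UMIs, linear axis with its own scale per panel) in clusters 0 to 6, with coloured points for library suffixes 1, 2 and 3 and black marks for all cells with 95% Poisson intervals. The 3 libraries of cluster 5 lay above every other cluster for *Myb* and *Ptprc*, and those of cluster 5 and cluster 0 overlapped for *Hlf*.

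Promoter sequences of the members were read from RefSeq (GRCm38.p6, 250 bases before to 50 after the start), where 8 of the 10 genes matched an entry and gave 10 promoters. Each was searched on both strands for 3 motifs. The RUNX motif TGTGGT occurred in 16.8% of all 32851 promoters of this length. The ETS motif GGAAGT was found in 23.8% of them. For the GATA motif AGATAA the share was 11.2%. Matches were present in the promoters of *Meis1* and *Ptprc* and in none of the other 7 promoters. The *Meis1* window (chr11:19018920-19019219, minus strand), the only one with the RUNX letters, and the upstream of 2 *Ptprc* windows (chr1:138175256-138175555, minus strand), a blood-restricted gene, are shown with matches in capitals; ACTTCC is the ETS motif read on the opposite strand. A match is a description of the letters in the window.
Meis1: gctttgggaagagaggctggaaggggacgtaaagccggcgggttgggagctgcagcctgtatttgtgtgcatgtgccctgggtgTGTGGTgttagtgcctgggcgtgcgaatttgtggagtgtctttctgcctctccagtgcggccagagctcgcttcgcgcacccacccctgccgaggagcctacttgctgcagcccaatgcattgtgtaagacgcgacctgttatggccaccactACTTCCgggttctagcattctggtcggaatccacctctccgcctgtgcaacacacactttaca
Ptprc: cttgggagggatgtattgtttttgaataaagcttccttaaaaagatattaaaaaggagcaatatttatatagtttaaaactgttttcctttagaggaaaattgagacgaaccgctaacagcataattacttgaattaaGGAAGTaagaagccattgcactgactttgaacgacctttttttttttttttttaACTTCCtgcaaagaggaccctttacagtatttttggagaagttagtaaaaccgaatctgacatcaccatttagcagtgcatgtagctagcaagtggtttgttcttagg

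How far the genes met in the same cells was examined in cluster 5 after thinning (1568 cells). *Myb* was detected with *Cd34* in 196 cells (12.5%, 95% Clopper–Pearson interval 10.9 to 14.2), with *Ptprc* in 70 (4.46%), with *Hlf* in 54 (3.44%), with *Mecom* in 49 (3.13%) and with *Procr* in 28 (1.79%). *Hlf* was found in 14.8% of the 364 cells with *Myb* and in 4.24% of the 1204 without it. *Cd34*, found in 47.1% of all thinned cells of cluster 5, differed less between these sets, at 53.85% and 45.02%. *Ptprc* went the other way, at 19.2% and 42.6%. The median depth was similar in both sets of cells (35849.5 and 36339 UMIs).

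Endothelial *Cdh5* was detected in 95 of the 364 thinned cells of cluster 5 with *Myb* (26.1%) and in 22.4% of the 1204 without it, with overlapping intervals (21.7 to 30.9 and 20.1 to 24.9). It was in 90 of the 583 cells with *Ptprc* (15.4%, interval 12.6 to 18.6) and in 27.9% of the 985 without (25.1 to 30.8). These intervals cover counting error over pooled cells only, and the difference was not tested or compared within libraries. In cluster 3, the germ-cell or pluripotency cluster, *Cdh5* was in 4 of the 27 cells with *Myb* (14.8%, interval 4.19 to 33.7) and in 32.5% of the 212 without it. Over all thinned cells, *Cdh5* was in 20.3%, 40.6% and 9.38% of cluster 3 and in 15.9%, 35.4% and 12.9% of cluster 5 in libraries 1 to 3, so neither cluster was higher in every library. The cluster 5 cells with neither *Mpo* nor *C1qb* held *Cdh5* at 0.716, 1.10 and 0.708 UMIs per 10,000, against 0.437, 1.07 and 0.347 in cluster 3. The part of free RNA in these pairs was not tested. Library 2 held 52 of the 95 and 56 of the 90 cells. The pairs with *Cdh5* made up 6.06% (*Myb*) and 5.74% (*Ptprc*) of cluster 5, and 4.66% and 3.68% without library 2. No thinned cell of cluster 5 had UMIs of *Ptprc*, *Procr* and *Ly6a* at once, where a floor of 3 cells allows up to 0.191%. With all UMIs 28 of 1572 cells had all 3 (1.78%). The triple was not particular to cluster 5. Cluster 1 had it in 4 of 745 thinned cells (0.537%) and, with all UMIs, in 22 of 799 (2.75%).

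The mean number of the 10 genes detected per thinned cell was 3.33 in cluster 0 and 3.27 in cluster 1, 2.08 in cluster 2, 1.79 in cluster 5 and 1.25 to 1.33 in clusters 3, 4 and 6. In cluster 0 the transcription factors gave 1.18 of this mean, and in cluster 1 they gave 0.502. The highest count was 8, reached in cluster 5.

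Cluster 5 was divided by *Mpo*, a granulocyte-progenitor enzyme gene, and *C1qb*, each at 2 or more UMIs after thinning, into 221 cells with *Mpo*, 653 with *C1qb*, 689 with neither and 5 with both. *Myb* was at 1.16 UMIs per 10,000 with *Mpo* and 1.13 with neither, against 0.094 with *C1qb*. *Hlf* was at 0.302 with neither, 0.076 with *Mpo* and 0.0083 with *C1qb*. *Ptprc* had the opposite order, at 0.636, 0.852 and 1.66. In the cells with neither gene, 7 of the 10 genes were at least 2-fold higher than in cells with *C1qb*, against 4.99% of 8217 genes. They were *Myb*, *Hlf*, *Mecom*, *Meis1*, *Mycn*, *Procr* and *Cd34*. *Ptprc* alone of the 10 was at least 2-fold lower, as were 7.98% of these genes. *Mecom* in particular was at 0.200, 0.343 and 0.267 by library with neither gene and at 0.048, 0.084 and 0.059 with *C1qb*.

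**Figure D4:**
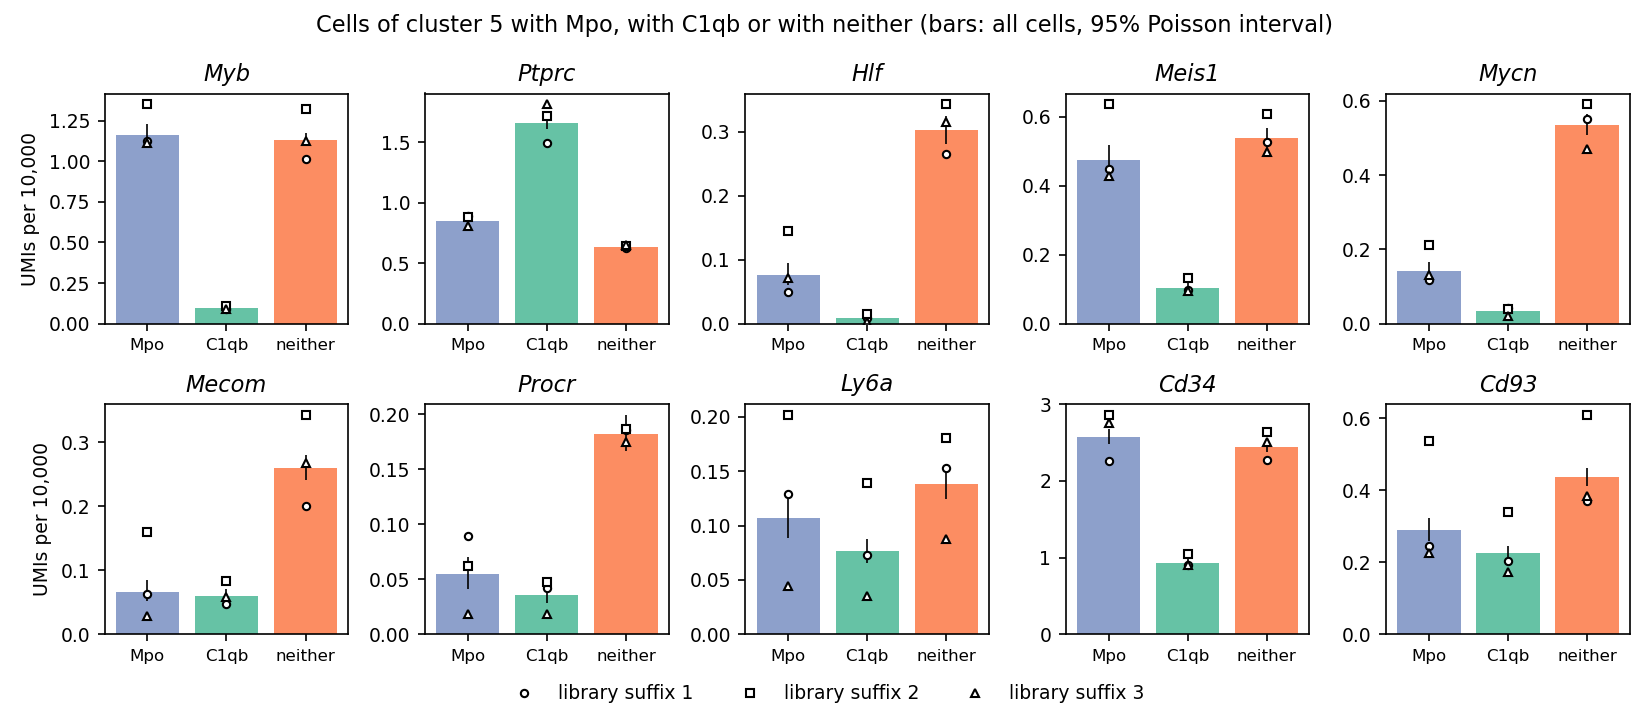
Levels of the 10 genes (UMIs per 10,000 UMIs) in cells of cluster 5 with *Mpo*, with *C1qb* or with neither; bars give all cells with 95% Poisson intervals and open symbols the 3 libraries. *Hlf*, *Mycn*, *Mecom* and *Procr* were highest in cells with neither gene in every library, and *Ptprc* was highest in cells with *C1qb*.

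Because *Hlf* was so unevenly placed, the 228 cells of cluster 5 with a *Hlf* UMI were set against the other 1344, a comparison chosen after the values had been seen. Median depth was 34580 and 36339 UMIs. Of the 9 other genes, 7 were at least 2-fold higher in the *Hlf* cells, and higher in all 3 libraries, against 5.55% of 8331 genes. Of the 9, 0 were at least 2-fold lower, against 5.38% of these genes, though *Ptprc* passed that limit with *Hlf* called in thinned cells, and *Ly6a* and *Ptprc* did with 2 or more *Hlf* UMIs. The median ratio over the 9 was 3.06, against 1.07 over all genes.

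Among the other members *Mycn* differed most, with a log2 ratio of 3.95 (95% interval 3.79 to 4.11). It was at 1.48, 1.43 and 1.09 UMIs per 10,000 by library in *Hlf* cells and 0.077, 0.133 and 0.061 in the others. The intervals given here cover counting error over pooled cells only, and for *Mycn* the ratios of single libraries spread more widely. *Mecom* was at 0.479, 0.832 and 0.513 against 0.058, 0.111 and 0.068 (log2 ratio 2.96, 2.77 to 3.15). *Procr* was at 0.398, 0.438 and 0.365 against 0.065, 0.060 and 0.027 (log2 ratio 2.95, 2.72 to 3.19). For none of these 3 genes did the libraries of the 2 sets of cells overlap.

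*Cd34* was at 4.62 in *Hlf* cells and 1.40 in the others, *Meis1* at 0.833 and 0.273, *Cd93* at 0.707 and 0.261, and *Myb* at 1.39 and 0.613. *Ptprc* was lower, at 0.593 against 1.16, and *Ly6a* did not separate the cells (0.101 against 0.109, higher in 1 of 3 libraries). Of the 47 listed genes, 42 were above the minimum level. Of these, 25 were at least 2-fold higher in *Hlf* cells and 0 at least 2-fold lower, beside shares of 5.55% and 5.38% over all genes. The higher ones included *Gfi1* (0.469 against 0.021), the homeobox gene *Hoxa9* (1.01 against 0.049) and the stem-cell factor receptor *Kit* (1.05 against 0.235). *C1qb* was at 0.672 against 8.08, and *Cdh5* at 1.19 against 0.480.

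*Hlf* UMIs were present in 186 of the 689 cells with neither *Mpo* nor *C1qb* (27.0%), 32 of the 221 with *Mpo* (14.5%) and 9 of the 653 with *C1qb* (1.38%). Within the 689 cells, 6 of the 9 genes remained at least 2-fold higher with *Hlf*, *Myb* falling short at a ratio of 1.39 (1.42 against 1.03). The share over all genes was not taken for this split, so this count has no background beside it.

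A parallel comparison, likewise chosen after the values had been seen, was made in the endothelial cluster 0 between 59 cells with a *Gfi1* UMI and 669 without. Depth differed between these sets, with medians of 22513 and 13580 UMIs. *Runx1* was at 2.12 and 0.079 UMIs per 10,000. Of the 10 genes, 5 were at least 2-fold higher in *Gfi1* cells and higher in all 3 libraries, against 2.58% of 8812 genes. No member above the minimum level, which *Ptprc* missed, was at least 2-fold lower, against 6.9% of these genes.

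*Hlf* was at 0.766, 0.456 and 0.297 by library in *Gfi1* cells and 0.036, 0.055 and 0.021 in the others (log2 ratio 3.78, 95% interval 3.22 to 4.37). *Myb* was at 0.237, 0.697 and 0.105 against 0.013, 0.043 and 0.013 (log2 ratio 3.74, 3.004 to 4.51), and *Mycn* at 2.06, 2.44 and 1.10 against 0.216, 0.191 and 0.128 (log2 ratio 3.32, 3.05 to 3.60). No library of the *Gfi1* cells overlapped the others for these 3 transcription factors. *Myb* rested on 45 and 25 UMIs and *Hlf* on 76 and 41. Here too the intervals cover counting error over pooled cells only. Dividing cluster 0 by *Runx1* (90 cells with a UMI, 638 without) gave ratios of 15.3 for *Myb*, 11.1 for *Hlf* and 9.71 for *Mycn*, and *Procr* was then below 2-fold (1.75).

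*Procr* (2.42 against 0.993) and *Meis1* (1.004 against 0.399) were also higher. The other endothelium-restricted genes were lower over all cells, with *Cd34* at 6.04 against 11.1, *Cd93* at 1.71 against 3.33, and *Mecom* at 2.80 against 3.63, each lower in all 3 libraries, and *Ly6a* at 0.087 against 0.162, lower in 2 of 3 on 13 and 180 UMIs. *Cdh5* was at 5.96 against 9.75. *Ptprc* was not detected in *Gfi1* cells, where 0 UMIs allow a level of up to 0.020, and was at 0.015 in the others, so no difference was detectable at this depth. *C1qb* had 0 UMIs in *Gfi1* cells and *Mpo* had 1. Of that list, 38 were above the minimum level and 15 of them at least 2-fold higher in *Gfi1* cells, *Gfi1* itself included, and 3 at least 2-fold lower, beside the shares of 2.58% and 6.9% over all genes. Among the higher ones were *Neurl3* (0.776 against 0.093), an early haemogenic marker, and the adhesion receptor gene *Adgrg1* (0.923 against 0.124).

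**Figure D5:**
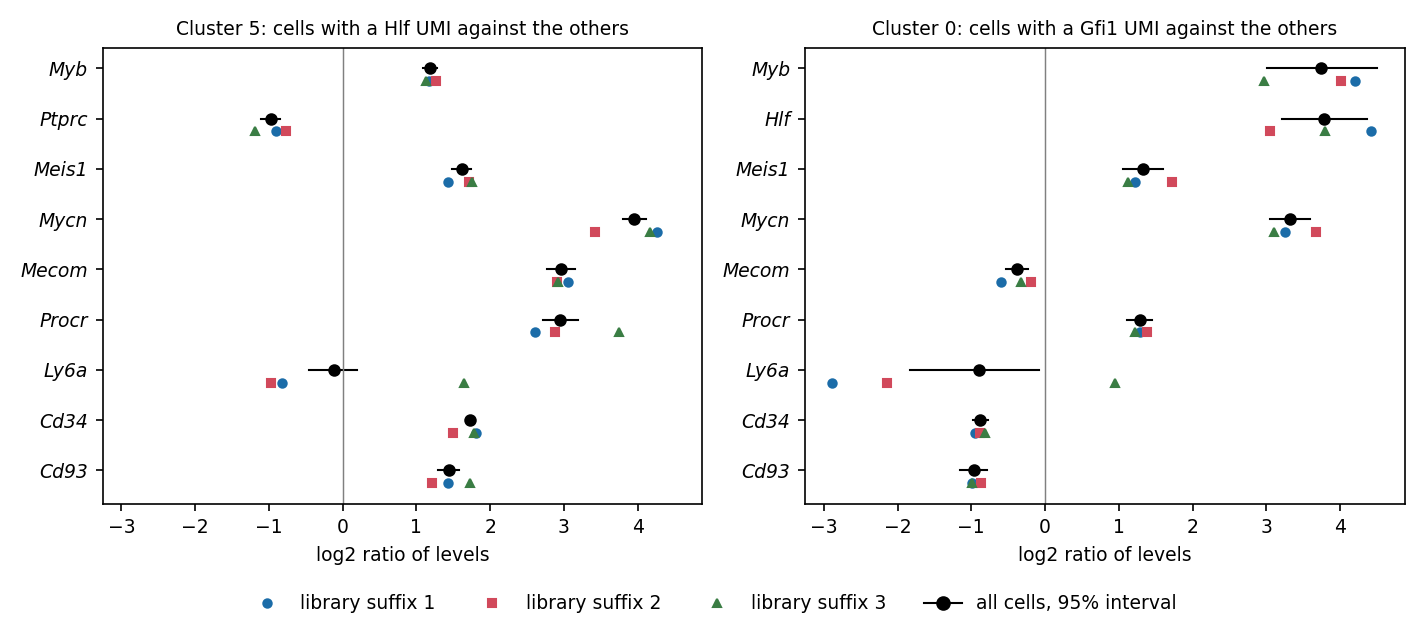
Log2 ratio of levels between cells with and without a *Hlf* UMI in cluster 5 (left) and with and without a *Gfi1* UMI in cluster 0 (right); black points and lines give all cells with 95% intervals, coloured symbols the 3 libraries. *Mycn* was at least 2-fold higher on both sides, whereas *Cd34* and *Cd93* were higher with *Hlf* in cluster 5 and lower with *Gfi1* in cluster 0; *Hlf* on the left and *Ptprc* on the right have no ratio and are not drawn.

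Likeness to other genes was taken as Pearson's r of log2(level + 0.1) over 21 cluster-by-library sums among 10988 genes, points that share libraries and depth, as a description without a test. *Ptprc* was most like the leukocyte gene *Ms4a6b* (r = 0.99) and *Cd93* most like *Flt1* (0.99), a VEGF receptor gene. *Mecom* was most like *Fam198b* (0.98), *Procr* like *Sft2d2* (0.98), *Cd34* like *Slco3a1* (0.97), *Myb* like *Ntpcr* (0.96) and *Ly6a* like *H2-Q7* (0.99). *Hlf* had the weakest nearest gene of the 10, *Lpcat2* (0.87).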

How the data were processed

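Single-cell 3′ libraries (10x v3 chemistry) were aligned to mm10 with Cell Ranger 3.1.0 by the authors, who kept singlets; Seurat 3.1.5 is named in the submitters' processing notes. The deposited raw table holds UMI counts per gene and cell, and the deposited normalized table holds the natural log of counts per 10,000 UMIs plus 1, which differed from recomputed values by at most 6.2e-15. Clusters were deposited by the authors, made with scanpy 1.8.2 on a graph of 10 neighbours and numbered from highest *Cdh5* to highest *Runx1*. The methods state a minimum of 5000 UMIs, and 90 of the 9562 cells were below it.

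Of 27998 gene rows, 27645 were named by GENCODE M21 (GRCm38), 353 kept their identifiers, and rows of 1 name were summed to 27994 genes. Levels are summed UMIs per 10,000 with exact 95% Poisson intervals. Shares carry Clopper–Pearson intervals after thinning cells to 5000 UMIs (seed 1), leaving out the 90 shallower cells. Ratios carry exact conditional binomial intervals. All intervals and floors (3 UMIs) cover counting error only. Restriction classes used ratios of 4 and 0.25 and a minimum level of 0.1. On simulated data for the comparison of clusters 5 and 6 with clusters 0, 1 and 2 (8317 genes, 200 changed 8-fold), 200 were called in their direction and 0 others were called. The simulated counts varied by Poisson error alone, without differences between cells or libraries. This checks the calling rule and does not measure error in the real counts. Named genes were the 10 members, a list of 47 context genes and, by the likeness rule, the genes with the highest r. The members and lists were chosen with earlier results of these data known. No doublet caller was run. Of the barcode sequences, 13 occurred in more than 1 library, 5 of them with the same cluster. Alternatives were ratios of 2 and 8, no minimum level, other detection thresholds and leaving out each library or the deepest cells. Computation used scipy 1.17.1 with numpy 2.4.6 under Python 3.11.15, tables pandas 2.3.3 and plots matplotlib 3.10.9.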

Additional observations from a re-analysis of the deposited data

How the results depend on the processing

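The classes depended on the ratio chosen. At a ratio of 2, 3 of the 10 genes were blood-restricted (*Meis1* in addition) and 2 shared, 17 of the 47 context genes were endothelium-restricted and 15 shared, and among all genes 818 were blood-restricted and 2787 endothelium-restricted. At a ratio of 8, 1 of the 10 genes was blood-restricted (*Myb*) and 5 were shared, 5 context genes were endothelium-restricted, and 273 and 950 of all genes were blood- and endothelium-restricted. With no minimum level these were 1260 and 3574. Leaving out each library gave 2, 5 and 3 genes in the 3 classes each time. Co-detection in cluster 5 moved with depth and threshold. *Ptprc* with *Cdh5* was in 28.2% of cells with all UMIs, 0.638% with at least 2 UMIs of each, and 3.68% to 6.91% when libraries were left out. *Myb* with *Cdh5* was in 23.3%, 0.893%, and 4.66% to 6.91%, and *Myb* with *Hlf* in 13.1%, 0.446%, and 3.25% to 3.71%. The alternatives chosen after seeing the data gave 6 or 7 genes higher with *Hlf* in cluster 5 and 4 (split by *Runx1* instead) or 5 with *Gfi1* in cluster 0. Shares over all genes were not taken for these alternatives, so their counts have no background beside them. *Ly6a* in the *Hlf* comparison had no settled direction, with ratios of 0.92 as reported, 1.56 with *Hlf* called in thinned cells and 0.43 with 2 or more *Hlf* UMIs. Reversal was scored only for the blood-to-endothelium ratios of the 10 genes. Under the alternatives 87 of these kept their class and 3 moved to or from shared, and no ratio passed to the opposite class. Counts, shares and levels could only be scored as the same or moved. Clusters and sets of cells were not tested against each other within library suffixes, by choice of design, and their values are set side by side within each suffix. The *Gfi1* comparison rests on 59 cells, and the low *Hlf* counts limit the order of its levels across clusters. After thinning to 5000 UMIs, the share of cells with *Hlf* was higher in cluster 5 than in cluster 0 in each library. The *Hlf* ratio was then 2.05.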
